A study of Mus musculus with 20 samples.

Results

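Immune cells that stay in an inflamed tissue can gather into follicle-like aggregates, and 9 genes that mark such aggregates and the B cells within them were followed in the mouse diaphragm after fibers had been placed in the pleural cavity. They are the B cell chemokine Cxcl13 and its receptor Cxcr5, the T cell zone chemokine Ccl19 and its receptor Ccr7, the lymphotoxins Lta and Ltb, and the B cell antigens Ms4a1, Cd79a, and Cd79b. They were found by the gene names given in the array files, which hold 12 probes for them among 55681. Ccl19 had 3 probes, Cd79a had 2, and the other genes had 1 each. All 12 probes were among the 36930 bright enough to be tested. The accession of 11 of the 12 led to the same gene in a current RefSeq gene table, and the brightest Cd79a probe, which the files assign to a cDNA clone, was not listed there.

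RNA came from the diaphragms of 20 female C57Bl/6 mice, injected at 8 weeks of age and killed 12 weeks later, with 4 mice in each of 5 groups and a separate array for each mouse. All groups received 100 μL of saline with bovine serum albumin into the pleural space. The control group received this vehicle alone, SFA and LFA contained short and long amosite asbestos fibers at 25 μg per mouse, and NTS and NTL contained short and long carbon nanotubes at 5 μg per mouse. SFA had been ground from the same asbestos as LFA. The short nanotubes were bought commercially and the long ones were made in a university laboratory, so NTS and NTL differ in source as well as length. Each fiber type was a single preparation, and the asbestos and nanotube doses differ, so a difference between them is not at a matched dose.

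In lymphoid tissue, stromal cells that receive lymphotoxin through the lymphotoxin β receptor produce Cxcl13, which draws B cells that carry Cxcr5 into follicles. Ccl19 draws T cells and dendritic cells that carry Ccr7 into the neighboring T cell zone. Ms4a1 encodes CD20, which B cells lose as they become plasma cells, and Cd79a and Cd79b encode the signaling chains of the B cell receptor.

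Levels are log2 signals relative to the 75th percentile of the same array, so that 0 is the 75th percentile and 1 unit is a 2-fold difference. They rank mice for the same probe and not different genes against each other. A gene was called changed when its log2 change was at least 1 with an adjusted p under 0.05 (limma fitted to all arrays, Benjamini-Hochberg over all tested probes). Where a gene had several probes the brightest is given unless stated. Ccl19 has near-identical copies in the mouse genome, so its signal may come from more than 1 of them. A bulk sample cannot tell fewer cells of a type from less RNA per cell.

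The promoters of 5 of the 9 genes were in the RefSeq promoter table of build GRCm38.p6, namely Cxcl13, Ccl19, Lta, Ltb, and Cd79a. All 5 are shown. From mouse to mouse Cxcl13, Lta, Ltb, and Cd79a varied together and Ccl19 varied apart from them, as given beside the correlations. Each line gives the 250 bases before the annotated start, 5′ to 3′ on the strand of the gene, at chr5:95956689-95956938 on the plus strand (Cxcl13), chr17:35205352-35205601 on the minus strand (Lta), chr17:35194257-35194506 on the plus strand (Ltb), chr7:24897247-24897496 on the plus strand (Cd79a), and chr4:42756366-42756615 on the minus strand (Ccl19). Capitals mark AGGAAG, the core that ETS factors such as PU.1 and Spi-B can bind, searched on both strands.
Cxcl13: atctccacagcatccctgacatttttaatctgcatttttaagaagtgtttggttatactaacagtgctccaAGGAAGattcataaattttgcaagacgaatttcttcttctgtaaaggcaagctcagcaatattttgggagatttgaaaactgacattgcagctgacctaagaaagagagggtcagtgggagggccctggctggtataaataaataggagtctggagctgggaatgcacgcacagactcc
Lta: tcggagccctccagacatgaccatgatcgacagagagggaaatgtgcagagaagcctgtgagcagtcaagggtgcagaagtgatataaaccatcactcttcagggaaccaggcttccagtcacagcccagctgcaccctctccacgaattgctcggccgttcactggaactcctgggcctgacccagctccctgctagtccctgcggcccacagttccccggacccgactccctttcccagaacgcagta
Ltb: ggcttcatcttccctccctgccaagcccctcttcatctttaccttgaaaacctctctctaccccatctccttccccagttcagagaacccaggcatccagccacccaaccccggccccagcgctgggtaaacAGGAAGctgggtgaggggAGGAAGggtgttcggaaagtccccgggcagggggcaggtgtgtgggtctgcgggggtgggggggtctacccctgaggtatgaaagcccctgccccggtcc
Cd79a: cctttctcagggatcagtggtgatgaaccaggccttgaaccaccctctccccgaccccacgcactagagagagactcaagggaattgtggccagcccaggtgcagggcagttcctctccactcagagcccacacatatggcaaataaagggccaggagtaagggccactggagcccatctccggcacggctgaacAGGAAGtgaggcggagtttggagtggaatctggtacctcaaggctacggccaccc
Ccl19: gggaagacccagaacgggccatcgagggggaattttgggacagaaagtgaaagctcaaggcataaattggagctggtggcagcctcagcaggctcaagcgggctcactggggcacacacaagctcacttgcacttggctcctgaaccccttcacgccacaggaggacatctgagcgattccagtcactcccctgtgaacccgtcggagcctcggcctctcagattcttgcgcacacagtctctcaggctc

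The ETS core was present in Cxcl13, Ltb, and Cd79a, where Ltb held it 2 times, and was not found in Ccl19 or Lta, so that it was absent from 1 of the 4 genes that varied together. It is a common motif, present in 29.5% of all 32851 promoters of this length. A TATAAA sequence began 46 bases before the start of Cxcl13 and 167 before that of Lta, and 12.4% of all promoters held one. The Ltb promoter held a match to the kappa B consensus of NF-κB, on the opposite strand between 87 and 78 bases before the start, and 3.90% of all promoters held a match. The octamer ATGCAAAT (1.60% of all promoters) and the EBF core CCCNNGGG (11.8%) were not found in any of the 5. These matches are descriptions of the letters in the window and do not show binding.

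Cxcl13 rose in both long-fiber groups, where its change was the largest of the 9 genes. Its levels were 1.86, 2.62, 3.19, and 1.45 in the control mice, 4.05, 4.22, 4.45, and 4.16 in LFA, and 3.76, 4.54, 4.50, and 4.52 in NTL. Every LFA and NTL mouse lay above every control mouse. In SFA the levels were 4.15, 2.52, 2.85, and 3.0, and in NTS they were 2.58, −0.29, 1.58, and 1.16. SFA replicate 1 thus reached the range of the long-fiber mice, while the other 3 SFA mice lay within that of the controls. The group means were 2.28 ± 0.77 in control, 3.13 ± 0.71 in SFA, 4.22 ± 0.17 in LFA, 1.26 ± 1.19 in NTS, and 4.33 ± 0.38 in NTL (SD, n = 4). The highest mouse stood 1.32-fold above the lowest in LFA and 1.73-fold in NTL, against 3.34-fold in control and 7.30-fold in NTS.

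Against control, Cxcl13 rose by 1.94 (SE 0.50, 3.84-fold, adjusted p = 0.0355, limma) in LFA and by 2.05 (SE 0.50, 4.14-fold, adjusted p = 0.0172, limma) in NTL. It was higher by 3.07 in NTL than in NTS (SE 0.50, 8.40-fold, adjusted p = 0.000779, limma), with every NTL mouse above every NTS mouse. The LFA call did not hold with slide as a block (1.96, adjusted p = 0.0592) and was lost when any of control replicates 1, 2, and 4 or any LFA replicate was left out, with changes from 1.67 to 2.06 and adjusted p from 0.0521 to 0.0907. The NTL call did not hold with slide as a block (1.88, adjusted p = 0.0720), and was lost without control replicate 4 (1.77, adjusted p = 0.0557) or NTL replicate 4 (1.99, adjusted p = 0.0533). Within slides, the mean difference from control was 2.86, 1.81, and 1.03 for LFA on slides 1, 2, and 3, and 1.52 and 1.34 for NTL on slides 2 and 3, each from 1 to 3 arrays a side.

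Cxcr5, the receptor of Cxcl13 on B cells and follicular helper T cells, was not called in any comparison. Its levels were 0.05, 0.45, 0.92, and −0.74 in control, −0.68, 0.19, 0.54, and −0.02 in LFA, and −1.19, 0.48, −0.32, and −0.16 in NTL. The SFA mice were at 0.77, −0.91, 0.41, and 0.55 and the NTS mice at −0.31, −1.51, −0.36, and −1.07. All groups overlapped with control, and NTS had the lowest mean at −0.82 ± 0.58. The change against control was −0.16 in LFA (95% interval −1.10 to 0.78) and −0.47 in NTL (−1.41 to 0.48), so that a rise of the size seen for Cxcl13 lies outside both intervals. With array weights, Cxcr5 was called lower in NTL (−1.03, adjusted p = 0.0435).

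Ccr7, which guides T cells and mature dendritic cells to the source of Ccl19, was raised in the nanotube comparison. The control mice were at −0.47, 0.62, 0.68, and −0.55, the NTL mice at 1.37, 2.29, 1.83, and 1.77, and the NTS mice at 0.23, −0.94, 0.15, and −0.14. Every NTL mouse lay above every control and NTS mouse. The SFA mice, at 0.25, −0.34, 0.64, and 0.13, lay within the control range. In LFA, replicates 2 to 4 were at 1.90, 1.80, and 1.31, while replicate 1, at −0.03, lay among the controls.

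Ccr7 rose by 1.74 in NTL against control (SE 0.42, 3.35-fold, adjusted p = 0.0163, limma) and was higher by 1.99 in NTL than in NTS (SE 0.42, 3.97-fold, adjusted p = 0.00598, limma). In LFA its change of 1.17 (SE 0.42, 2.26-fold) had an adjusted p of 0.106 (limma), and without LFA replicate 1 it was 1.60 and called (adjusted p = 0.0340). That mouse had the lowest level of its group for 9 of the 9 genes. The NTL call did not hold with slide as a block (1.46, adjusted p = 0.0579), without control replicate 1 (1.56, adjusted p = 0.0514), or without control replicate 4 (1.53, adjusted p = 0.0524). Within slides, Ccr7 in NTL exceeded control by 1.29 and 1.28 on slides 2 and 3, and in LFA it differed from control by 2.11, −0.10, and 1.22 on slides 1, 2, and 3.

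Ccl19 had a smaller shift and the smallest spread of the set within groups. Its levels were 0.23, 0.64, 0.23, and 0.76 in control, 0.60, 1.72, 0.71, and 1.60 in LFA, and 1.45, 1.48, 1.63, and 1.0 in NTL. The SFA mice were at 0.23, 0.44, 0.40, and 0.24 and the NTS mice at 0.67, 0.46, 1.04, and 0.41. Every NTL mouse lay above every control mouse, and LFA overlapped with control but lay above every SFA mouse. In NTL the gain was 0.92 (SE 0.27, 1.90-fold), which passed the adjusted p (0.0407, limma) but stayed under the 2-fold needed for a call. In LFA it was 0.69 (SE 0.27, adjusted p = 0.131, limma).

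The other 2 Ccl19 probes were dimmer and had the same direction, with changes of 0.54 and 0.46 in LFA and 0.68 and 0.79 in NTL, and neither passed an adjusted p of 0.05. All 3 are placed by the files on the plus strand of chromosome 4 of build NCBI37, at chr4:42250105-42250164 for the brightest. The Ccl19 promoter shown lies on the minus strand in build GRCm38.p6. It may therefore belong to a different copy from the one on which the probes are placed. The adjusted p of the brightest probe in NTL ranged from 0.00088 with array weights to 0.116 with scan date as a block, and was 0.0976 with slide as a block and 0.104 without NTL replicate 3. Its change passed 2-fold, and so was called, without control replicate 4 (1.02, adjusted p = 0.0489) and without NTL replicate 4 (1.05, adjusted p = 0.0498).

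The lymphotoxins, which act upstream of these chemokines in lymphoid tissue, showed no call in any comparison. Ltb, the membrane-bound partner in the lymphotoxin heterotrimer, was at 2.18, 3.38, 3.47, and 1.66 in control, 2.38, 3.55, 3.85, and 3.02 in LFA, and 2.74, 3.68, 2.95, and 3.40 in NTL. The SFA mice were at 3.39, 1.94, 3.38, and 2.76 and the NTS mice at 2.58, 0.96, 2.82, and 2.38. The 3.50-fold range among the control mice covered most mice of the other groups. Its change was 0.53 in LFA (95% interval −0.49 to 1.55) and 0.52 in NTL (−0.50 to 1.54).

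Lta, the subunit that lymphotoxin shares between its secreted and membrane-bound forms, lay far below the 75th percentile, at −3.67, −2.80, −1.77, and −3.59 in control, −3.57, −2.48, −2.73, and −3.10 in LFA, and −3.72, −2.58, −3.31, and −2.53 in NTL. In SFA it ranged from −3.05 to −2.35 and in NTS from −4.73 to −2.27. It was well above background on 19 of the 20 arrays, the exception being NTS replicate 2. The changes were −0.01 in LFA (95% interval −1.03 to 1.01) and −0.08 in NTL (−1.10 to 0.94), and their sign turned under quantile normalization (0.24 and 0.03).

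**Figure D1:**
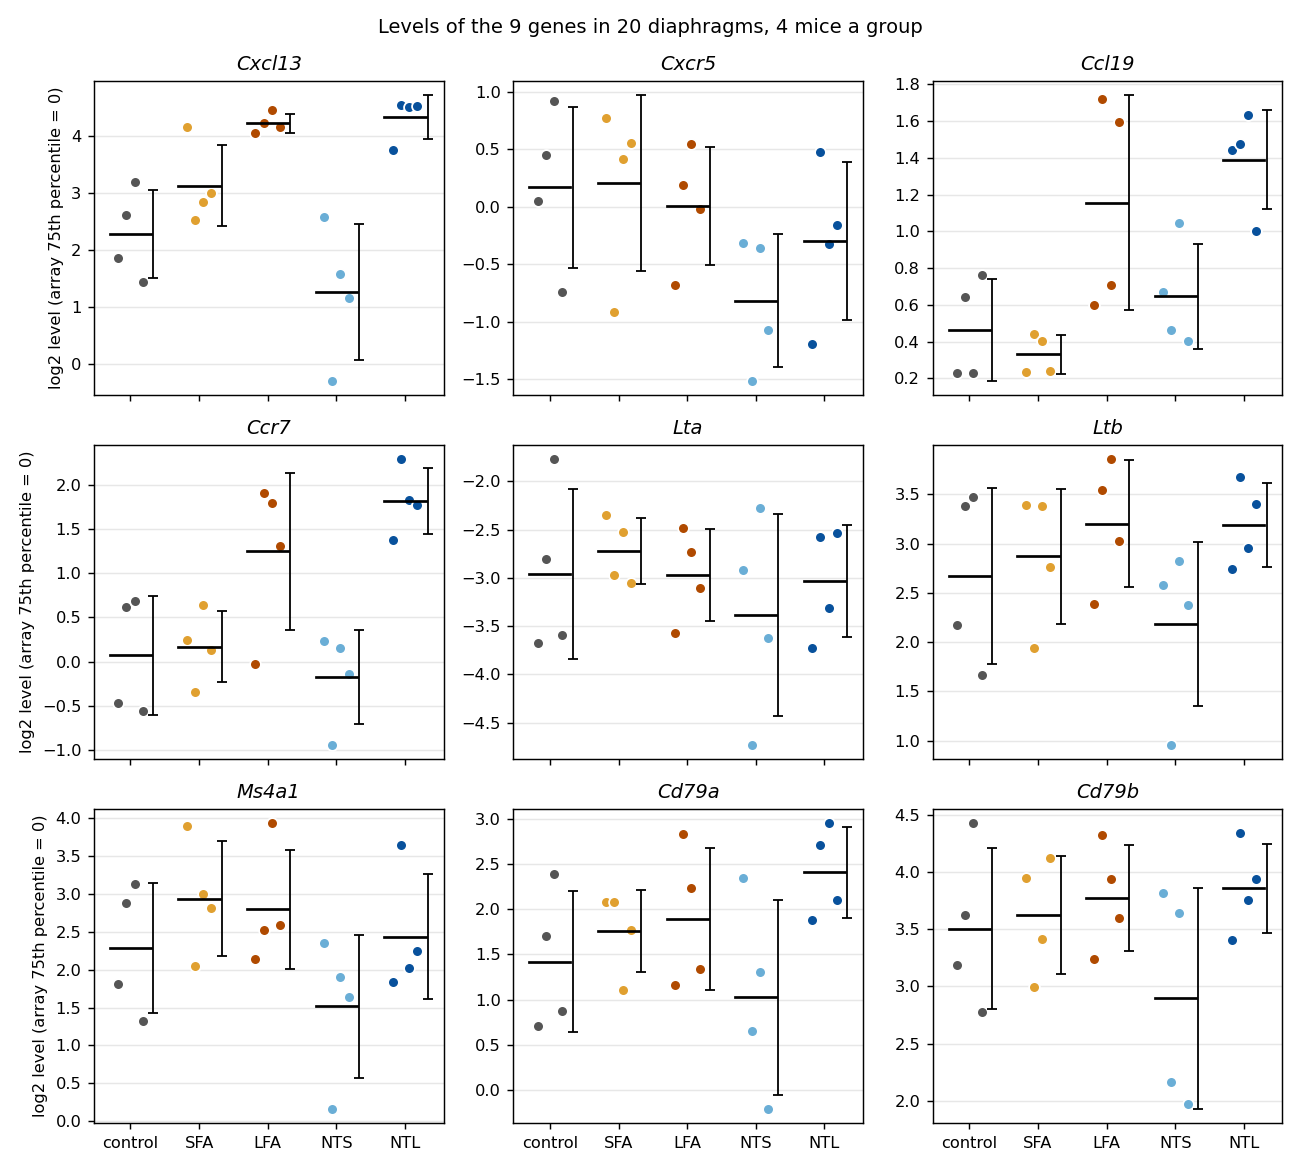
Log2 levels of the 9 genes (vertical axis, array 75th percentile at 0) in the 5 groups (horizontal axis). Points are mice, horizontal lines the group means, and bars 1 SD on each side, with 4 mice a group. For Cxcl13 all LFA and NTL mice lie above all control mice, whereas Cxcr5, Lta, Ltb, Ms4a1, Cd79a, and Cd79b overlap across groups.

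The B cell antigens were not called in any comparison, except that Cd79a was called higher in NTL than in NTS with normexp background correction and without NTS replicate 1 (1.39 with all arrays, adjusted p = 0.0967, limma). Ms4a1 was at 1.81, 2.88, 3.12, and 1.32 in control, 3.89, 2.04, 2.99, and 2.81 in SFA, and 2.13, 2.52, 3.93, and 2.59 in LFA. It was at 2.35, 0.17, 1.90, and 1.64 in NTS and 1.84, 3.65, 2.01, and 2.24 in NTL. The highest and lowest mice of a group differed 3.47-fold to 4.53-fold in each of the 5 groups, and Ms4a1 had the largest within-group SD of the set, 0.84, against a median of 0.58 over all tested probes. Its change was 0.51 in LFA (95% interval −0.67 to 1.68) and 0.15 in NTL (−1.03 to 1.33).

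Cd79a was at 0.71, 1.70, 2.39, and 0.88 in control, 1.16, 2.83, 2.23, and 1.34 in LFA, and 1.88, 2.70, 2.95, and 2.10 in NTL. The 4 SFA mice ranged from 1.11 to 2.08 and the NTS mice from −0.21 to 2.34. Its change in NTL was 0.99 (SE 0.51, 95% interval −0.08 to 2.06, adjusted p = 0.250, limma), and that in LFA was 0.47 (SE 0.51). The dimmer Cd79a probe, on the transcript that RefSeq assigns to the gene, gave 0.40 in NTL and 0.20 in LFA, so that both probes had the same sign and neither was called.

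Cd79b was at 3.19, 3.62, 4.42, and 2.78 in control, 3.24, 4.33, 3.94, and 3.60 in LFA, and 3.40, 4.34, 3.75, and 3.94 in NTL. It ranged from 3.0 to 4.13 in SFA and from 1.97 to 3.81 in NTS. Its change was 0.27 in LFA and 0.36 in NTL, each with an SE of 0.44, and the groups overlapped. The upper limits of the 95% intervals for the 3 antigens were 1.20 to 1.68 in LFA and 1.28 to 2.06 in NTL, so rises of up to those sizes are not excluded by these data.

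Counted over the set, 1 of 9 genes was called higher in LFA against control, where 2.22% of all tested probes were, and 2 of 9 in NTL, where 3.63% were. With counts this small, the share of the set is not a result about the set. The median log2 change of the 9 genes was 0.51 in LFA and 0.52 in NTL, while that of all tested probes was −0.28 and −0.25. Quantile normalization brought the median of all probes to −0.08 and −0.09 and gave Cxcl13 changes of 2.06 and 2.33. Every LFA mouse lay above every control mouse for 1 of the 9 genes and for 4.61% of all probes, and every NTL mouse for 3 of the 9 (Cxcl13, Ccl19, and Ccr7) and for 6.35%. Both long-fiber groups lay wholly above control for Cxcl13 and for 3.62% of probes, and wholly above control, SFA, and NTS together for 0 of the 9 and for 1.43%.

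**Figure D2:**
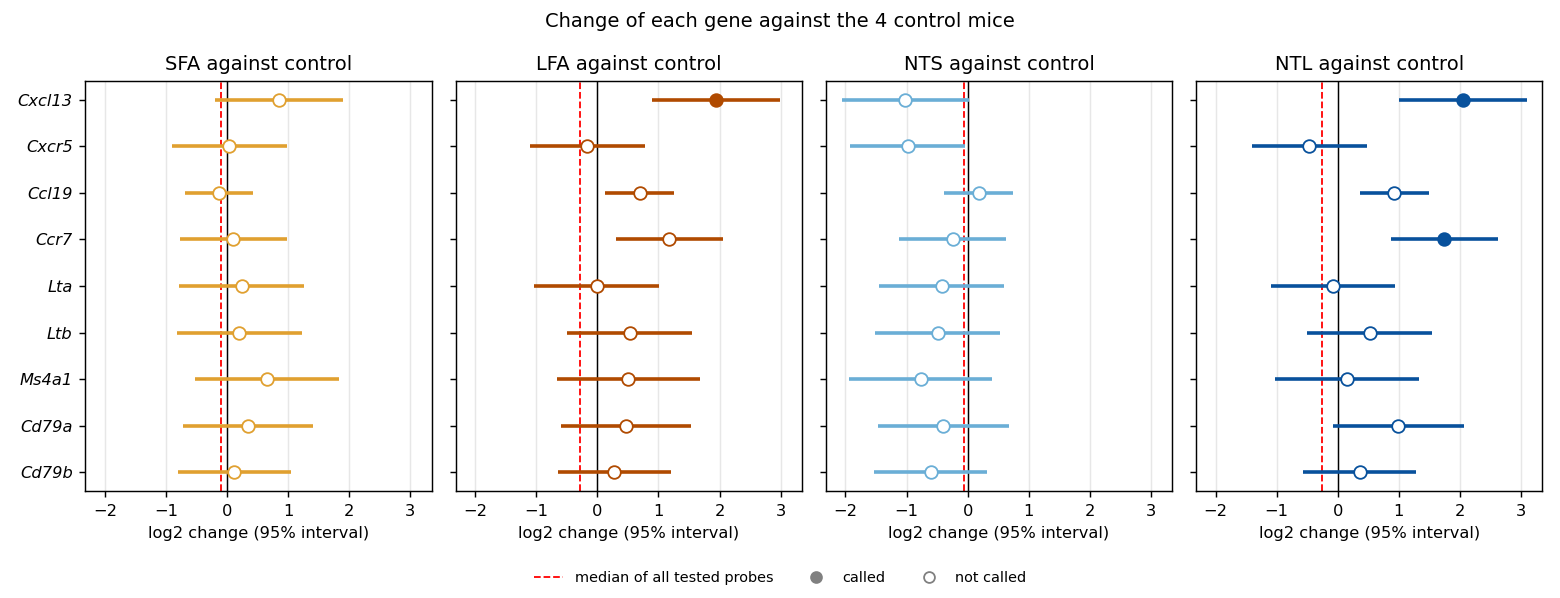
Log2 change of each gene (points) with its 95% interval (lines) against the 4 control mice, a panel for each fiber group. Filled points are called and the dashed line is the median of all tested probes. Cxcl13 is called in LFA and NTL and Ccr7 in NTL, and the points of 8 of the 9 genes lie left of 0 in NTS.

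In the short-fiber groups limma called 0 of the 9 genes and 0% of all probes against control, both for SFA and for NTS. At an unadjusted p under 0.05, 0 of the 9 differed in SFA, where 2.28% of all probes did, and 1 in NTS, where 3.49% did. It was Cxcr5, which was at −0.98 (95% interval −1.92 to −0.04). The highest change in SFA was that of Cxcl13, 0.85 (SE 0.50, adjusted p = 0.999). NTS had the lowest group mean of all 5 groups for 8 of the 9 genes, Ccl19 being the exception. Its changes against control ranged from −1.02 for Cxcl13 to 0.18 for Ccl19, with a median of −0.49 against −0.06 over all probes, and in no gene did every NTS mouse lie below every control mouse. Within NTS, replicate 2 was lowest for 6 genes and replicate 4 for the other 3. No NTS array lay on slide 3. Within slides, the mean difference of NTS from control ranged from −0.325 (Cd79a) to 0.94 (Ltb) on slide 1. On slide 2 it ranged from −1.16 (Cxcr5) to 0.29 (Cd79a). The part of the slide in the low NTS means was not tested.

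Long and short fibers were then compared directly. LFA against SFA gave 0 calls among the 9 genes, where 1.03% of all probes were called higher, and 3 of the 9 had an unadjusted p under 0.05, as did 12.5% of all probes. These were Ccl19 (0.83, adjusted p = 0.195), Cxcl13 (1.09, adjusted p = 0.375), and Ccr7 (1.08, adjusted p = 0.293). Every LFA mouse exceeded every SFA mouse for Ccl19, as for 3.17% of all probes. NTL against NTS gave 2 calls, Cxcl13 and Ccr7, where 4.89% of all probes were called higher. For the same 2 genes every NTL mouse lay above every NTS mouse, as for 7.62% of probes. With slide as a block the call of Ccr7 was lost and that of Cxcl13 held. NTL and NTS shared only slide 2, with 1 and 2 arrays, where the mean differences were 2.61 for Cxcl13 and 1.73 for Ccr7. Length and slide can therefore not be fully told apart in this comparison, and length and nanotube source cannot be told apart at all.

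For Cxcl13 the long fibers exceeded the short ones by 1.09 for asbestos and by 3.07 for nanotubes, a difference of −1.98 (SE 0.70). The nanotube value includes any effect of their different source. The unadjusted p of that difference in limma was 0.0113 and its adjusted p was 1, and 0 of the 9 genes and 0% of all probes passed that test. LFA and NTL, given at different doses, differed by 0 calls among the 9 genes and by 0% of all probes, and 0 of the 9 had an unadjusted p under 0.05, as did 1.55% of all probes. Over all 4 fiber groups together, Cxcl13 (adjusted p = 0.00180) and Ccr7 (adjusted p = 0.0149) passed limma's F test with a 2-fold change, as did 5.89% of all probes. Ccl19 had an adjusted p of 0.0501 in that test.

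The levels of 8 of the 9 genes varied together from mouse to mouse. With each value set relative to its group mean, the 28 pairs that leave out Ccl19 had Pearson correlations from 0.47 to 0.91 over the 20 arrays, with a median of 0.78. The highest were 0.91 for Ccr7 with Ltb, 0.90 for Ltb with Ms4a1, and 0.89 for Cxcr5 with Ltb. Cxcl13 had 0.83 with Ms4a1 and 0.77 with its receptor Cxcr5. The 8 pairs with Ccl19 had −0.09 to 0.33. Points of the same array share its RNA sample, its slide, and its scaling, so these values are a description. Without the NTS mice, Ltb with Ccr7 had 0.90 and Ltb with Ms4a1 0.88.

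The same mice stood out across genes. Control replicate 3 was the highest control for 8 of the 9 genes and control replicate 4 the lowest for 6. LFA replicate 1 was the lowest LFA mouse for all 9 genes and NTL replicate 1 the lowest NTL mouse for 8. The slide moved with this spread. Relative to the group means, the arrays of slide 2, which held LFA replicate 1 and NTL replicate 1, lay on average below 0 for 9 of the 9 genes (−0.33 to −0.01), and those of slide 3, which held control replicate 3, above 0 for all 9 (0.04 to 0.34). The part of the slide in the spread between mice was not tested.

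**Figure D3:**
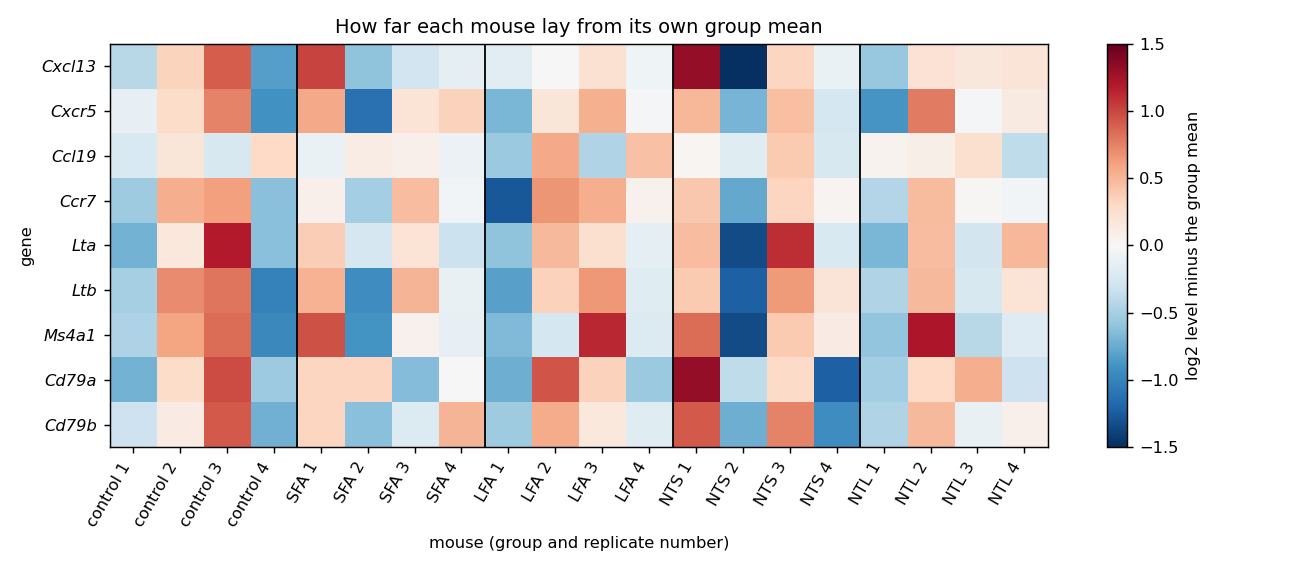
Log2 level of each gene (rows) in each mouse (columns) minus the mean of its group, in red above and in blue below that mean. Columns of nearly uniform color, such as control replicate 3, LFA replicate 1, and NTS replicate 2, show mice in which most of the 9 genes were high or low together. Ccl19 was low with the others in LFA replicate 1 and lay below its group mean in control replicate 3, where the others were high.

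Among 18423 other genes, those most like the mean of the 3 B cell antigens over the 20 group-centered arrays were Spib (r = 0.92), Fcrla (r = 0.92), Bcl11a (r = 0.92), Tnfrsf13c (r = 0.90), and Ptprcap (r = 0.89). Spib encodes the factor Spi-B, Fcrla an Fc receptor-like protein of B cells, and Tnfrsf13c the receptor of the B cell survival factor BAFF. Those most like Cxcl13 were B3gnt5 (r = 0.93), Tnfrsf13c (r = 0.89), Pla2g2d (r = 0.89), Spib (r = 0.86), and Gm3227 (r = 0.86). None of these genes was called in LFA or NTL against control, their adjusted p in limma ranging from 0.164 to 0.738.

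The wider lymphotoxin and chemokine pathway was read from a list of 28 genes, 24 of them tested. In LFA 3 rose and 1 fell, and 4 rose and 1 fell in NTL, with a list median of 0.64 and 0.54. Of all 36930 tested probes, 821 were called higher and 634 lower in LFA, and 1340 higher and 1174 lower in NTL. The RANK ligand gene Tnfsf11 rose by 2.74 in LFA and 2.84 in NTL, the TNF receptor gene Tnfrsf1b by 2.19 and 2.35, and the adhesion molecule Vcam1 by 1.42 and 1.76. Tnfsf11 was not well above background on any control or NTS array, so the size of its rise is measured against a level near the floor. Ccrl1, the older name of Ackr4, which encodes a receptor that removes Ccl19 and Ccl21, fell by 1.26 in LFA and by 1.62 in NTL. The lymphotoxin β receptor Ltbr was at 0.21 and 0.21, neither called. In SFA and NTS, limma called 0 of the 24.

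Of 30 genes of B cell receptor signaling and the B lineage, all tested, 5 rose in LFA and 10 in NTL and 0 fell. Among all tested probes, 2.22% were called higher in LFA and 3.63% in NTL. The largest of those called in both were Cd72 (2.28 and 2.71), Ly86 (1.61 and 1.97), Btk (1.40 and 1.55), and Plcg2 (1.20 and 1.39). Ly86, Btk, and Plcg2 are also expressed by macrophages. Cd22, an inhibitory coreceptor of B cells (−0.63 and −0.56), was not called. The median over the 30 genes was 0.68 for LFA and 1.03 for NTL.

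Of 18 genes of follicles and germinal centers, 16 were tested, of which 3 rose in LFA and 6 in NTL, beside 2.22% and 3.63% of all tested probes. Those called in both were the inhibitory Fc receptor Fcgr2b (2.98 and 3.22), which macrophages also carry, and Pdcd1 (2.56 and 2.84) and Icos (1.90 and 2.05). Pdcd1 and Icos encode regulatory receptors on T cells, not the antigen receptor. The complement receptor Cr2 of B cells and follicular dendritic cells (0.36 and 0.34) and the IgE receptor Fcer2a (−0.17 and 0.27) were not called. The germinal center factor Bcl6 was at −0.09 and −0.14.

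**Figure D4:**
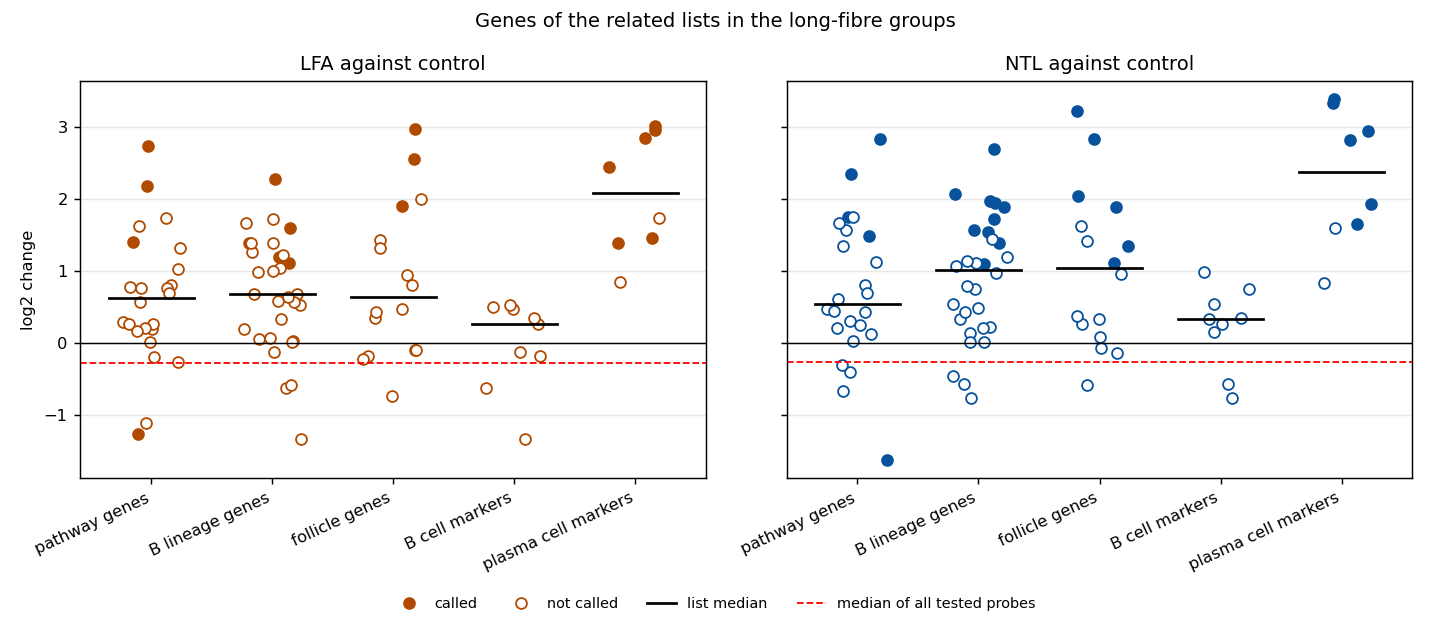
Log2 change of each tested gene (points) of 3 gene lists and 2 marker lists in LFA and NTL against control. Filled points are called, black lines are list medians, and the dashed line is the median of all tested probes. Of the plasma cell markers 6 of 8 are called in each group, and of the B cell markers 0 of 9.

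Markers of the cell types that a diaphragm with aggregates could hold were read beside these genes. For every marker list, the share of all tested probes called higher was 2.22% in LFA and 3.63% in NTL. Called lower were 634 of 36930 in LFA and 1174 in NTL. Of 9 B cell markers, limma called 0 in LFA and 0 in NTL, with medians of 0.27 and 0.34 and adjusted p from 0.250 to 0.912. Their summed signal, in multiples of the 75th percentile, ranged from 14.0 to 41.5 in control, 19.4 to 39.1 in SFA, 18.8 to 39.7 in LFA, 9.33 to 28.9 in NTS, and 20.9 to 44.1 in NTL. The ranges overlap. Ms4a1, Cd79a, and Cd79b are 3 of these 9 markers, so the list in part restates their values. Plasma cell markers rose, with 6 of 8 called higher in LFA and in NTL and a summed signal of 209 to 298 and 249 to 418 against 52.6 to 78.4 in control. Igj, the chain that joins secreted antibodies, rose by 3.02 and 3.34, and Derl3 by 2.97 and 3.39.

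Of 10 T cell markers, 0 were called in LFA and 1 in NTL. Their median change was 0.832 in LFA, with 8 of the 10 above 0, and 1.135 in NTL, with 10 of the 10 above 0. The summed signal was 9.43 to 19 in control, 15.6 to 30.4 in LFA, and 19.5 to 26.0 in NTL, so every NTL mouse lay above every control mouse. Of the 8 macrophage and dendritic cell markers tested, 3 rose in LFA and 5 in NTL, with a summed signal of 28.2 to 52.9 in control, 76.1 to 127 in LFA, and 108 to 159 in NTL, and Xcr1 was not well above background on any array of control, LFA, or NTS. Cd68 rose by 1.95 and 2.39. Of 8 markers of high endothelial venules and lymphatic vessels, 1 rose in LFA (Lyve1, 1.17), and in NTL 2 rose and Chst4, a sulfotransferase of high endothelial venules, fell by 2.46. Their sums were 18.6 to 32.9 in control, 24.2 to 42.9 in LFA, and 26.3 to 47.6 in NTL. The part of these cell types in the Cxcl13 and Ccr7 changes was not tested.

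Thymocyte markers were not called in LFA or NTL (0 of 3 tested) and their sum was at most 3.63, in an NTS mouse. Mesothelial markers were not called in LFA or NTL against control (0 of 8). Skeletal muscle markers, which were above background in all groups and match the labeled tissue, were lower, with 2 of 8 called in LFA and 3 in NTL and a summed signal of 1840 to 2550 and 1820 to 2270 against 3590 to 5840 in control. Liver markers were not called in LFA or NTL (0 of 8) but varied from 15.8 to 4520 between mice and exceeded 1000 in 5 of them, SFA replicate 2, LFA replicates 1 and 3, and NTS replicates 3 and 4. With the liver level as a covariate, Cxcl13 changed by 1.95 in LFA (adjusted p = 0.0459) and 2.06 in NTL (adjusted p = 0.0194), and Ccr7 by 1.79 in NTL (adjusted p = 0.0151). With those 5 arrays left out, Cxcl13 in LFA was at 1.91 and not called (adjusted p = 0.120, 2 LFA mice), Ccl19 in LFA was at 1.19 and called (adjusted p = 0.0207), and both NTL calls held.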

How the data were processed

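Total RNA was labeled with Cy3 and hybridized to Agilent mouse arrays, and the authors deposited, per the file headers, spot intensity values from Agilent Feature Extraction 10.7.3.1, background-subtracted and detrended. The authors also deposited log2 values normalized in GeneSpring, which hold group values only and were used for comparison without a test. The deposited marks for background, outliers, and saturation were also read. No spot was saturated (0).

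Outlier spots were dropped, spots of a probe averaged on the log2 scale, and each array was scaled to its 75th percentile (294 to 996 in signal, with 53.0% to 68.1% of spots well above background). The number of arrays limits precision. Testing required the software's mark of being well above background in 4 or more of the 20 mice. Correlations between arrays ran from 0.865 to 0.986. limma 3.58.1 in R 4.3.3 fitted a mean per group to all arrays, with data.table version 1.17.8 for input and Python 3.11.15 (numpy 2.4.6, pandas 2.3.3, matplotlib 3.10.9) for reading and figures. Steps were tested on simulated data. Named were all probes of the 9 genes, and of each list the first 2 genes and up to 4 of the largest called in both long-fiber groups, plus the 5 genes most like a target. A single list gene that falls under this rule is not reported here. Genes that are given with values outside this rule were chosen after their values were seen. The 9 genes, the lists, and most alternatives were chosen with earlier results of these data known. The labels do not name separate litters or cages, so p-values measure the spread between these mice. Slides and scans were taken from the array headers, and each group lay on 2 or 3 of 3 slides. NTL had 1 array on slide 2 and 3 on slide 3, and NTS had 2 on slide 1 and 2 on slide 2. The arrays of slide 3 were scanned on a different date from the others. Nanotube length is thus largely confounded with slide and scan date, and wholly with the source of the nanotubes.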

Additional observations from a re-analysis of the deposited data

Results flagged for a closer look

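Each of the 9 genes was checked in each of the 5 groups of 4 mice, 45 sets in all, for a mouse that lay far from the other 3. In 1 set the gap to the nearest mouse, divided by the whole range of the group, exceeded Dixon's critical value for 95%. It was Cxcl13 in NTL, where replicate 1, at 3.76, lay below the other 3 mice at 4.50 to 4.54, with a ratio of 0.945. That mouse was still above every control mouse. Chance flags about 1 in 20 such sets.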

How the results depend on the processing

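With 4 mice a group the calls lay close to the threshold. In LFA against control, 0 of the 9 genes were called, in place of 1, with no filter on dim probes, with slide as a block, and with array weights, and 0 to 1 when each array was left out in turn. In NTL against control, 0 were called, in place of 2, with slide or with scan date as a block, and 1 to 2 with an array left out. In NTL against NTS, 1 was called, in place of 2, with slide or with scan date as a block, and 3, with Cd79a added, with normexp background correction and without NTS replicate 1. Over all fiber groups, 1 passed with slide as a block and 3, with Cxcr5 added, with array weights, in place of 2. By an ANOVA for unequal variances, the type of test named in the methods of the paper, 0 passed. The paper first kept probes with a 2-fold change and corrected over those. Here the correction ran without that selection, so it does not repeat the paper's procedure. In that ANOVA the adjusted p was 0.075 for Cxcl13 and 0.0594 for Ccr7. Leaving out the arrays with liver signal, an alternative chosen after seeing the data like the liver covariate, gave 1 call in LFA against SFA, Ccl19. The cause of these differences was not tested, except that fewer arrays were fitted where some were left out.

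Whether equal replicate numbers mark related mice was not settled. Of 40 same-number pairs, 14 had a correlation of deviations over 0.1 (−0.676 to 0.689), but pairs with different numbers were not computed for reference. With the replicate block the counts were 1 in LFA, 2 in NTL, and 2 in NTL against NTS, as without it, and no call changed.

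Signs turned for small changes that were not called. They were Lta in LFA (0.24) and NTL (0.031) under quantile normalization and in LFA (0.17) without the liver arrays, Cd79b in NTL with slide as a block (−0.008), Ms4a1 in NTL with scan date as a block (−0.02), and, with array weights, Cd79a (−0.077) and Cd79b (−0.17) in LFA and Ms4a1 (−0.42) and Cd79b (−0.16) in NTL. With an array left out, Cxcr5 in LFA ranged from −0.47 to 0.087, Lta in LFA from −0.25 to 0.38, Lta in NTL from −0.31 to 0.32, and Ms4a1 in NTL from −0.25 to 0.43. Cxcl13 stayed between 1.61 and 2.24 in LFA and between 1.59 and 2.35 in NTL over all alternatives. The authors' table gave group differences only and no test.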
